A study of Homo sapiens with 7 samples.

Results

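The 5 genes SHISA2, IGSF10, CDCA7, TRDC and CD3D were picked by symbol from 11408 genes with expression values because their RNA was lower in every library with a guide against ZFP36L2 than in every control library, TRDC and CD3D also because they are lymphoid antigen receptor genes. The samples were 7 poly(A) RNA-seq libraries of MOLM13, an established human acute myeloid leukemia line that carries a KMT2A fusion, taken 6 days after transduction with guide RNAs. Of these, 4 carried a guide against ZFP36L2, an RNA-binding protein that shortens the life of mRNAs with AU-rich 3′ UTRs, with 2 libraries for each of 2 guides, called guide 5 and guide 3 after the deposited columns. The other 3 carried sgRosa, which the labels describe as non-targeting. In the libraries labelled knockout ZFP36L2 mRNA itself was higher, at 164 to 322 FPKM, against 73.9 to 80.2 FPKM with sgRosa, a log2 difference of 1.51 (adjusted p = 8.18e-05). A lower level was therefore not seen in the libraries labelled knockout, and the reason for the higher level was not tested. Whether the cells were clones or pools, and how much protein was lost, is not given in the sources used here.

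SHISA2 encodes a protein of the endoplasmic reticulum membrane that, in frog and mouse embryos, holds back immature FGF and Frizzled receptors and so dampens FGF and Wnt signals. IGSF10 encodes a large secreted protein of the immunoglobulin superfamily, known in humans for variants linked to delayed puberty. CDCA7 encodes a zinc-finger protein, a target of MYC and E2F, that brings the remodeller HELLS to nucleosomes so that DNA methylation can be maintained. TRDC is the constant segment of the T cell receptor delta chain, which is paired with a gamma chain in gamma-delta T cells. CD3D encodes the CD3 delta chain, a signalling partner of every T cell receptor. The antigen receptor genes belong to lymphocytes, whereas MOLM13 is a myeloid line. Of 12 myeloid leukemia line markers, 11 had values here and KIT had none. Among the 11, the myeloid surface receptor CD33 was at 7.41 to 9.36 FPKM with the guides and 5.15 to 10.8 FPKM with sgRosa.

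ZFP36 proteins bind the heptamer TATTTAT in 3′ UTRs, so the annotated 3′ UTRs (GENCODE 29) of the 5 genes were searched for it on the transcript strand. The 2 sites found are shown with 10 bases on either side and the heptamer in capitals, since they are the sequence the targeted protein family is known to recognise.
SHISA2 heptamer site: atgtcggtggTATTTATggcacgattc
IGSF10 heptamer site: agatataaatTATTTATagataatgat
The SHISA2 site starts 86 bases after the stop codon in a UTR of 1916 bases, and the IGSF10 site 2399 bases after it in a UTR of 3195 bases. No match was found in the UTRs of CDCA7 (1333 bases), TRDC (256 bases) or CD3D (208 bases). Longer UTRs hold the heptamer more often: among UTRs of 80% to 125% of the length, 38.3% held it for SHISA2 and 55.2% for IGSF10. That share was 28.7% for CDCA7, 10.6% for TRDC and 6.18% for CD3D, so most UTRs of those lengths lack the heptamer as well. The shorter core ATTTA, which the heptamer contains, occurred 6 times in SHISA2, 17 times in IGSF10, 5 times in CDCA7 and 0 times in TRDC and CD3D. Of tested genes with an annotated 3′ UTR, 38.5% of 1273 genes that were lower with the guides held the heptamer, as did 23.2% of 1453 that were higher and 28.4% of all 6394. Median UTR lengths were 1538 bases in the lower genes, 711 in the higher and 988.5 in all. A match is a string of letters and not a shown binding site.

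Promoter windows, 250 bases before to 50 after the start, came from RefSeq (GRCh38.p14) for all of the genes except TRDC. They were searched on both strands for 7 motifs. For E2F factors the letters were TTTCCCGC or TTTGGCGC, and for MYC the E-box CACGTG. For the lineage factors they were CCGGAAGT for the ETS family, TGTGGT for RUNX and AGATAA for GATA proteins. The last pair were the general promoter elements CCAAT and, for the TATA box, the letters TATAAA. The 2 windows with a match are shown with the matched letters in capitals, because CDCA7 is a known E2F target and CD3D a lineage gene.
CDCA7 promoter: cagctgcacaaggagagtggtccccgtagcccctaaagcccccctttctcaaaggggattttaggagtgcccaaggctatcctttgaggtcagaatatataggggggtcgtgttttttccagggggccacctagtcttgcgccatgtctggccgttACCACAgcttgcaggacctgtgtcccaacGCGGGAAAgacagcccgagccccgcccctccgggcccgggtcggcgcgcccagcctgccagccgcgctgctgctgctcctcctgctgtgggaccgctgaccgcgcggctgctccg
CD3D promoter: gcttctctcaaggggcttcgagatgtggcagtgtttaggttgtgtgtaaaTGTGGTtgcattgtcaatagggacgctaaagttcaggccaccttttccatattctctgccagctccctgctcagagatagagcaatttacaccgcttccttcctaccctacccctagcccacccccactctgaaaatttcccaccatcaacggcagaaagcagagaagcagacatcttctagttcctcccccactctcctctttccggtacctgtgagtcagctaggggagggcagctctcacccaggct
The CDCA7 window (chr2:173354622-173354921, plus strand) holds 1 E2F match beginning 65 bases before the start and 1 RUNX match beginning 94 bases before it, both read on the opposite strand. An E2F match was present in 2.27% and a RUNX match in 13.1% of all 35116 promoter windows. The CD3D window (chr11:118342656-118342955, minus strand) holds 1 RUNX match beginning 200 bases before the start. None of the 7 motifs was found in the SHISA2 window (chr13:26051967-26052266, minus strand) or in the 3 windows of IGSF10. The SHISA2 window's GC content of 69.7% and 34 CpG dinucleotides compare with a mean of 57.5% and a median of 14 over all windows. No SHISA2 or IGSF10 window covers the start of the gene span given below (26051031 for SHISA2, 151458709 for IGSF10). The SHISA2 window lies upstream of it. The IGSF10 windows lie upstream (chr3:151539267-151539566 and chr3:151461012-151461311) or inside the gene (chr3:151440731-151441030). Sequence at those starts was not searched.

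SHISA2 (ENSG00000180730, chr13:26044597-26051031 in GRCh38, minus strand) gave the lowest log2 difference of all 6783 tested genes. FPKM here are reads per kilobase of the whole gene span, scaled to library size, as deposited. Its FPKM were 1.07 and 0.772 with guide 5 and 0.417 and 0.581 with guide 3, against 5.80, 5.46 and 4.07 with sgRosa. The groups did not overlap: the lowest sgRosa library stood 3.79 times above the highest guide library. The mean with the guides, 0.711 ± 0.282 FPKM (SD, n = 4), was 13.9% of the sgRosa mean of 5.11 ± 0.916 FPKM (SD, n = 3). The log2 difference of FPKM + 0.5, the added constant that keeps low values from dominating, was -2.23 ± 0.16 (SE). Behind these values stood 258 and 145 reads with guide 5 and 88 and 143 with guide 3, against 691, 752 and 640 with sgRosa, so the SHISA2 transcript was detected in every library.

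IGSF10 (ENSG00000152580, chr3:151425384-151458709, minus strand) had 0.775 and 0.972 FPKM with guide 5 and 0.653 and 0.632 FPKM with guide 3, against 2.31, 6.03 and 2.33 FPKM with sgRosa. The guide libraries were close to each other, while sgRosa replicate 2 stood 2.60 times above the mean of the other sgRosa libraries, a ratio whose median over all tested genes was 1.19. The mean was 0.758 ± 0.156 FPKM with the guides (SD, n = 4) and 3.56 ± 2.14 FPKM with sgRosa (SD, n = 3), or 21.3% of sgRosa. Without sgRosa replicate 2 it was 32.7%, and the log2 difference of -1.58 ± 0.26 (SE) became -1.17. The groups did not overlap, as the gene was picked for, and leaving out a library could not make them overlap. The lowest sgRosa value was 2.38 times the highest guide value. IGSF10 overlaps MED12L on the opposite strand, which had no values here. The library kit kept strand, but whether reads were counted by strand is not given in the sources used here.

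CDCA7 (ENSG00000144354, chr2:173354820-173368997, plus strand) was the most abundant of the 5 genes. It had 5.89 FPKM in both guide 5 libraries and 4.30 and 4.76 FPKM with guide 3, against 14.1, 17.9 and 12.3 FPKM with sgRosa. Every sgRosa library was at least 2.09 times above the highest guide library. The mean of 5.21 ± 0.805 FPKM with the guides (SD, n = 4) was 35.2% of the 14.8 ± 2.84 FPKM with sgRosa (SD, n = 3), a log2 difference of -1.41 ± 0.16 (SE). Reads ranged from 2001 to 3117 in the guide libraries and from 3707 to 5428 in the sgRosa libraries. An antisense pseudogene overlapping the start of the gene in the annotation had no values here.

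TRDC (ENSG00000211829, chr14:22462932-22465787, plus strand) had 0.431 and 0.636 FPKM with guide 5 and 0.406 and 0.266 FPKM with guide 3, against 2.19, 2.11 and 1.52 FPKM with sgRosa. The highest guide library lay 2.39 times below the lowest sgRosa library. The mean of 0.435 ± 0.153 FPKM with the guides (SD, n = 4) was 22.4% of the 1.94 ± 0.368 FPKM with sgRosa (SD, n = 3), a log2 difference of -1.39 ± 0.14 (SE). These are low counts of a short gene: 46 and 53 reads with guide 5 and 38 and 29 with guide 3, against 116, 129 and 106 reads with sgRosa. The annotated antisense transcript AC244502.1 overlaps TRDC and was itself at 0.0255 ± 0.00856 FPKM with the guides (SD, n = 4) and 0.0875 ± 0.00561 FPKM with sgRosa (SD, n = 3), too low to be tested. Reads of the antisense pair cannot be told apart without the strand setting.

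CD3D (ENSG00000167286, chr11:118338954-118342744, minus strand) differed least. It had 2.10 and 1.76 FPKM with guide 5 and 1.95 and 1.50 FPKM with guide 3, against 3.69, 4.88 and 3.60 FPKM with sgRosa. The groups stayed apart by a factor of 1.71 between the lowest sgRosa and the highest guide library. The mean of 1.83 ± 0.258 FPKM with the guides (SD, n = 4) was 45.1% of the 4.06 ± 0.719 FPKM with sgRosa (SD, n = 3), a log2 difference of -0.96 ± 0.16 (SE). In bulk RNA, fewer cells that express such a gene and less RNA per cell cannot be told apart.

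**Figure D1:**
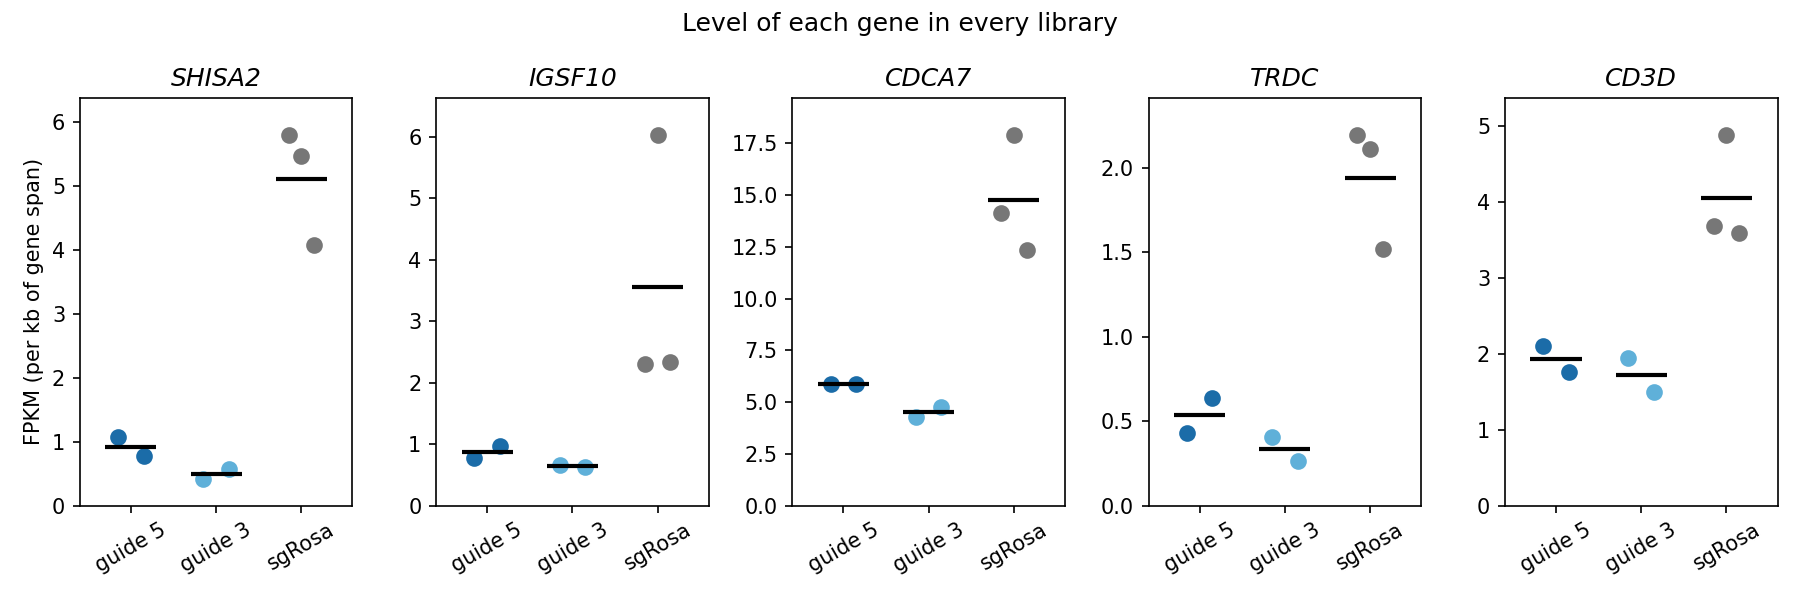
FPKM (y axis, each panel with its own scale from 0) of the 5 genes in the 2 libraries of guide 5, the 2 of guide 3 and the 3 of sgRosa; points are libraries and bars are means. In each panel every guide library lies below every sgRosa library, and for IGSF10 one sgRosa library, at 6.03 FPKM, stands above the other two.

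These differences are what the genes were picked for, so they are given without a test. For scale, 24.0% of all tested genes (1628 of 6783) were lower in every guide library than in every sgRosa library, and 19.7% passed the test as lower. A log2 difference of -1 or lower was found in 54 genes (0.796%), and 4 of the 5 are among them. The filter for testing, at least 2 libraries with FPKM of 1 or more, was met by all 5 genes, by IGSF10 and TRDC through their sgRosa libraries alone and by SHISA2 with 1 guide library above it. For SHISA2 the authors' deposited table gives log2 fold changes over control of -2.47 with guide 5 and -3.35 with guide 3. For IGSF10 the authors' deposited table gives -2.03 with guide 5 and -2.47 with guide 3, and for CDCA7 -1.33 with guide 5 and -1.71 with guide 3. It gives -1.87 with guide 5 and -2.53 with guide 3 for TRDC, and -1.07 with guide 5 and -1.23 with guide 3 for CD3D. No constant as large as 0.5 FPKM enters those values, and both guides share the same controls.

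Levels can be compared between genes only per length, so CPM (counts scaled to library size) were also divided by the kilobases of annotated exons. On that scale CDCA7 was highest with sgRosa at 53.3 ± 10.2, followed by CD3D at 16.6 ± 2.93, SHISA2 at 11.5 ± 2.06, IGSF10 at 10.1 ± 6.09 and TRDC at 7.70 ± 1.46 (SD, n = 3). The order with the guides was CDCA7 at 18.8 ± 2.90, CD3D at 7.46 ± 1.05, IGSF10 at 2.15 ± 0.443, TRDC at 1.72 ± 0.605 and SHISA2 at 1.60 ± 0.634 (SD, n = 4). CDCA7 stood apart from the rest by more than the spread in both groups, as CD3D did with the guides. The ranges of IGSF10, TRDC and SHISA2 overlapped with the guides, and with sgRosa the range of IGSF10, 6.56 to 17.1, overlapped those of CD3D, SHISA2 and TRDC. SHISA2 thus had the third highest level with sgRosa and the lowest mean with the guides.

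The difference between the guides was not used in picking the genes and could be tested. All 5 means were higher with guide 5 than with guide 3. SHISA2 stood at 18.1% of the sgRosa mean with guide 5 and 9.76% with guide 3, and TRDC at 27.5% with guide 5 and 17.3% with guide 3. CD3D was closest, at 47.7% with guide 5 and 42.5% with guide 3. None passed limma's test with Benjamini-Hochberg adjustment over all tested genes, which called 0.737% of genes (50 of 6783). The log2 difference, guide 5 minus guide 3, was 0.51 for SHISA2 (95% interval 0.0437 to 0.970, unadjusted p = 0.0349, adjusted p = 0.390), when 11.4% of all tested genes had an unadjusted p below 0.05. It was 0.35 for CDCA7 (interval -0.12 to 0.82), 0.30 for TRDC (-0.11 to 0.72), 0.26 for IGSF10 (-0.51 to 1.03) and 0.13 for CD3D (-0.32 to 0.59), with adjusted p between 0.528 and 0.810. Each of these 4 intervals includes both 0 and the SHISA2 estimate of 0.51. A higher mean with guide 5 was common among lowered genes: it was found in 69.2% of the 1628 genes lower in every guide library, against 40.7% of all tested genes.

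**Figure D2:**
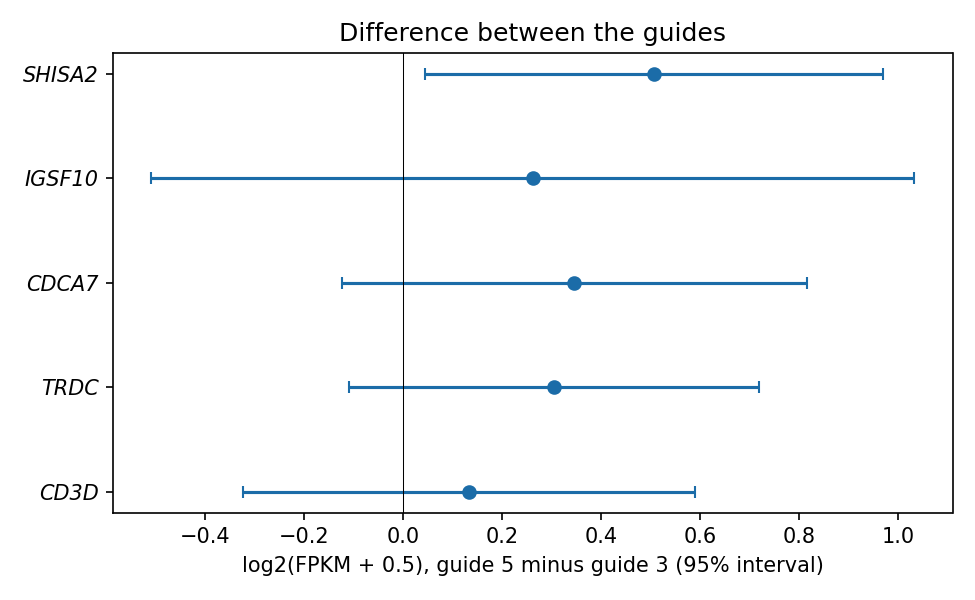
Difference between guide 5 and guide 3 in log2(FPKM + 0.5) (x axis) for each gene, with its 95% interval from the limma fit over all 7 libraries. All estimates lie above 0, from 0.13 to 0.51, and the interval of SHISA2 alone does not reach 0 before adjustment.

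GC content moved with the log2 differences across all genes. Tested genes were ranked by transcript GC and cut into 10 bins of equal size. In the bin with the lowest GC the median log2 difference was -0.45 and 51.5% were called lower, while in the bin with the highest GC the median was 0.61 and 0 were. Transcript GC was 41.3% for IGSF10, 41.8% for TRDC, 42.2% for CDCA7, 46.8% for SHISA2 and 51.8% for CD3D. The medians of their bins were -0.42 for IGSF10, -0.36 for TRDC and CDCA7, -0.26 for SHISA2 and 0.06 for CD3D. The genes were picked for low values, so their place below these medians is a description. With GC content and length fitted smoothly and removed in each library, the log2 differences were -2.07 for SHISA2, -1.29 for IGSF10, -1.10 for CDCA7, -1.15 for TRDC and -1.14 for CD3D. The first 4 became smaller and that of CD3D larger. Counted from the lowest of all tested genes after this correction, SHISA2 ranked 1, IGSF10 11, TRDC 21, CD3D 23 and CDCA7 27, against 1, 3, 8, 70 and 7 before it.

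**Figure D3:**
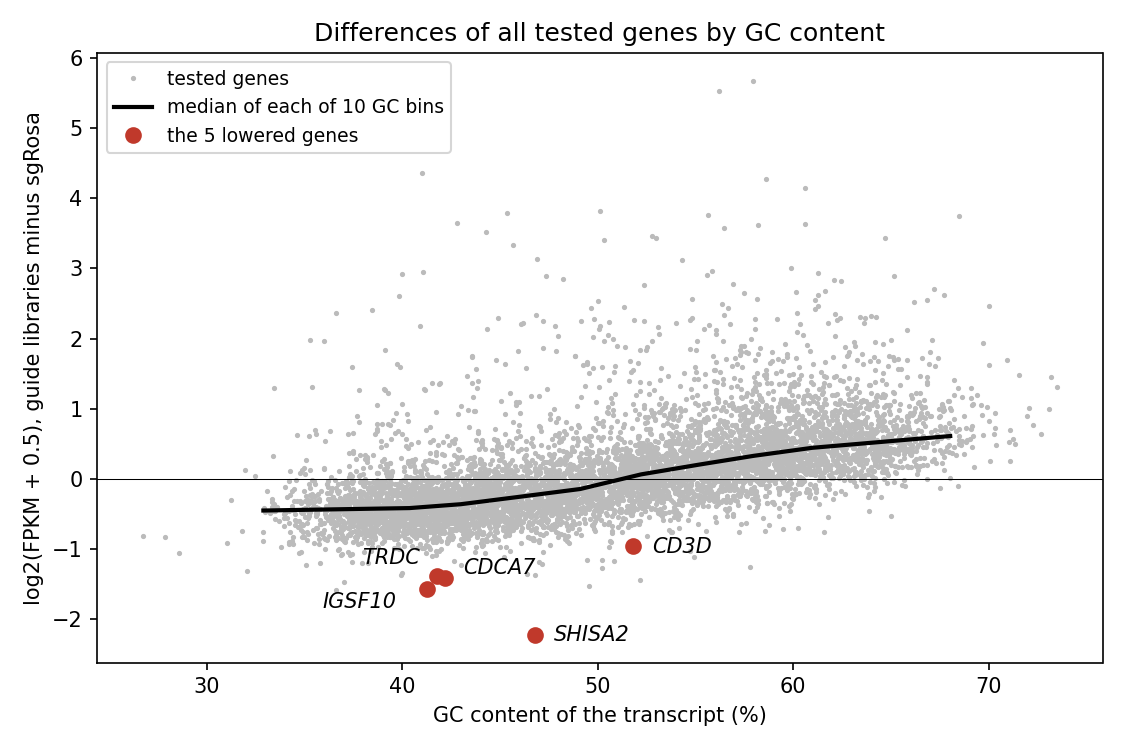
Each grey point is one of 6783 tested genes, placed by transcript GC content in percent (x axis) and by the log2(FPKM + 0.5) difference of guide libraries minus sgRosa (y axis); the line joins the medians of the 10 GC bins and red points are the 5 genes. The medians run upward with GC from -0.45 to 0.61, and the 5 genes lie at the lower edge of the cloud at GC contents of 41.3% to 51.8%.

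Of the 10 T cell receptor and CD3 chains listed, 4 had values here: TRDC, CD3D and the gamma chain constant segments TRGC1 and TRGC2. CD3E, CD3G, CD247, TRAC, TRBC1 and TRBC2, which complete the receptor, had none. TRGC1 went the other way from TRDC, at 1.26 and 1.01 FPKM with guide 5 and 1.22 and 1.04 FPKM with guide 3, against 0.367, 0.875 and 0.325 FPKM with sgRosa. It was higher in every guide library and rose by 0.71 ± 0.17 on the log2 scale (SE, adjusted p = 0.0101), but without sgRosa replicate 1 its adjusted p was 0.0552. No sgRosa library reached 1 FPKM, so TRGC1 could be tested only because it was high with the guides. With no filter on low values its adjusted p was 0.0205 and that of TRGC2 0.0147 (log2 difference 0.30). TRGC2 was at 0.189 ± 0.0374 FPKM with the guides (SD, n = 4) and 0.0600 ± 0.0621 FPKM with sgRosa (SD, n = 3), below the filter. The gamma segments are near-identical copies, so reads may be split between them. The summed FPKM of the 4 chains was 2.96 to 3.96 with the guides and 5.47 to 8.004 with sgRosa. With sgRosa most of that sum came from CD3D and TRDC, and with the guides from CD3D and TRGC1; since CD3D and TRDC were picked for being lower, the sum is no separate evidence.

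Few other lymphoid genes were tested, and of those called all but MYB rose. Of 18 T lineage signalling and surface genes, 4 had values and 2 were tested. CD4, which monocytic cells also carry, rose (0.75, adjusted p = 0.00365), and the adaptor LCP2 did not pass (0.19, adjusted p = 0.529). Of 5 tested lymphoid regulators, NOTCH1 (0.90, adjusted p = 0.00340) and the interleukin-7 receptor IL7R (0.69, adjusted p = 0.00510) rose; NOTCH1 was not called under the GC correction with replicate block (adjusted p = 0.0634). The progenitor factor MYB fell by 0.66 on the log2 scale (adjusted p = 0.0274), and TCF3 and IKZF1 did not pass. MYB lost its call in 5 of the alternative settings tried. With no filter on low values, 3 of 4 T lineage genes rose and 0 fell. Of 9 regulators 4 then rose and 1 fell, when 19.2% of all 11408 genes rose and 16.9% fell. After the GC correction 2 of the 5 tested regulators rose and 2 fell. Of 11 NK cell markers, 2 had values. The NK granule gene NKG7 rose by 1.56 (adjusted p = 0.000739). NCAM1, below the filter, was at 0.467 ± 0.0464 FPKM with the guides (SD, n = 4) and 0.443 ± 0.144 FPKM with sgRosa (SD, n = 3). None of the 11 B cell markers had values here. In all tested genes 22.5% were called higher and 19.7% lower. Myeloid markers moved in these libraries too: of 9 tested, 5 rose and 2 fell. The 5 include CD4, which is on the T lineage list as well and was counted there. The monocyte receptor CSF1R rose by 1.81 (adjusted p = 4.47e-06), the lysozyme gene LYZ by 1.37 (adjusted p = 0.00217) and the factors SPI1 by 1.11 (adjusted p = 0.00132) and CEBPA by 1.04 (adjusted p = 0.00816), while FLT3 fell by 0.71 (adjusted p = 0.00574) and MPO by 0.74 (adjusted p = 0.00709). CSF1R met the filter through the guide libraries alone, SPI1 (adjusted p = 0.0668) and CEBPA (adjusted p = 0.112) were not called after the GC correction, and LYZ was not called under quantile normalization (adjusted p = 0.203). The summed FPKM of the marker list was 1817 to 3370 with the guides and 724 to 1269 with sgRosa. Most of that sum was LYZ alone, at 1593 to 3131 FPKM with the guides and 615 to 1138 FPKM with sgRosa. The sum therefore does not describe the other markers. The part of these markers in the values of TRDC and CD3D was not tested.

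CDCA7 acts with HELLS, and other genes of that remodelling and DNA methylation group were tested. Of 10 tested genes besides CDCA7, 4 fell, 0 rose and 6 did not pass, when 19.7% of all tested genes fell and 22.5% rose, with a median log2 difference of -0.46, against -0.00499 over all tested genes. CDCA7L, the paralog of CDCA7, had 0.953 and 1.15 FPKM with guide 5 and 0.776 and 0.834 FPKM with guide 3, against 1.87, 3.12 and 1.90 FPKM with sgRosa. It fell by 0.95 ± 0.17 on the log2 scale (SE, adjusted p = 0.00201). HELLS itself was at 0.538 and 0.519 FPKM with guide 5 and 0.513 and 0.456 FPKM with guide 3, against 1.22, 1.62 and 0.872 FPKM with sgRosa, and fell by 0.77 ± 0.14 (SE, adjusted p = 0.00293). HELLS met the filter through its sgRosa libraries alone, and leaving it out gives 3 of 9 that fell. With no filter on low values its adjusted p was 0.00682, and 5 of the 14 listed genes with values fell and 1 rose, against 16.9% lower and 19.2% higher among all 11408 genes. The groups did not overlap for CDCA7L or HELLS. Among all tested genes 24.0% were lower in every guide library than in every sgRosa library.

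ZBTB24, the zinc-finger factor that activates CDCA7 transcription, fell by 0.69 (adjusted p = 0.0102). Variants in ZBTB24, CDCA7, HELLS and the methyltransferase DNMT3B cause the same human immunodeficiency with centromeric instability. DNMT3B, at 0.378 ± 0.0308 FPKM with the guides (SD, n = 4) and 0.496 ± 0.101 FPKM with sgRosa (SD, n = 3), was below the filter. So was the methyltransferase DNMT3A, which was higher in every guide library, at 0.427 ± 0.0520 FPKM with the guides (SD, n = 4) and 0.288 ± 0.0524 FPKM with sgRosa (SD, n = 3), and is the gene that rose with no filter (adjusted p = 0.0278). The replication clamp PCNA fell by 0.54 (adjusted p = 0.0257), a call lost in 9 of the alternative settings, among them the GC correction (adjusted p = 0.118). DNMT1, the maintenance methyltransferase, did not pass (-0.31, adjusted p = 0.186). HELLS and ZBTB24 are GC-poor, at 38.6% and 41.6%, and both were called lower after the GC correction too (adjusted p = 0.00653 and adjusted p = 0.0110). Without sgRosa replicate 2 the counts were the same, 4 lower and 0 higher, while the median was -0.20. With the same sum of FPKM in every library 9 of the 10 were lower, when 2377 of all 6783 tested genes were. With voom on recovered reads 6 were lower, when 1740 of all tested genes were. In the fit reported above, 1339 of all tested genes were lower.

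Of the 6 other genes named for cell division as CDCA7 is, 2 fell: CDCA7L and CDCA2, a chromatin-bound mitotic factor, by 0.66 (adjusted p = 0.00489). CDCA3, CDCA4, CDCA5 and CDCA8 did not pass, and the median was -0.09; that share is to be read beside the 19.7% of all tested genes that fell. Of the 6 MCM helicase subunits that open replication origins, all of them E2F targets, 3 fell and 0 rose, with a median of -0.53, when 19.7% of all tested genes fell and 22.5% rose. MCM6 fell by 0.98 (adjusted p = 0.000836), MCM4 by 0.92 (adjusted p = 0.00189) and MCM3 by 0.65 (adjusted p = 0.00850). MCM2, MCM5 and MCM7 were not called here but were called lower, so that 6 of 6 were lower, under quantile normalization, with the same sum of FPKM in every library and after the GC correction. In those settings 1930, 2377 and 1736 of all 6783 tested genes were called lower, against 1339 in the fit reported above. The MCM count stayed at 3 with the replicate block, with voom and with no filter, and was 4 without sgRosa replicate 2.

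Relatives of SHISA2 and IGSF10 were few among the tested genes, of which 22.5% were called higher and 19.7% lower. SHISA5, a Shisa protein linked to apoptosis, rose by 0.84 (adjusted p = 0.00360) and ranged over 4.86 to 6.06 FPKM with the guides and 2.25 to 3.30 FPKM with sgRosa; it was not called under the GC correction with replicate block (adjusted p = 0.144). SHISA7, known from neuronal receptors, rose by 0.69 (adjusted p = 0.00956), with adjusted p = 0.407 after the GC correction. No sgRosa library of SHISA7 or of IGSF8 reached 1 FPKM, so both could be tested only because they were high with the guides. The other Shisa genes on the list had no values here. Of the receptors that Shisa proteins act on, 3 were tested: FZD2 rose by 1.04 (adjusted p = 0.00691) although its lowest guide library, at 5.44 FPKM, lay under the highest sgRosa library at 5.56 FPKM, FZD5 fell by 0.56 (adjusted p = 0.0121), a call lost in 3 alternative settings (adjusted p up to 0.0618, without guide 5 replicate 1), and FZD1 did not pass (-0.38, adjusted p = 0.0527). FZD2 was not called under the GC correction with replicate block (adjusted p = 0.0814). FZD3, below the filter, was lower in every guide library, at 0.310 ± 0.0675 FPKM (SD, n = 4), against 0.672 ± 0.214 FPKM with sgRosa (SD, n = 3). Its adjusted p was 0.0115 when no filter was set. In that setting 1 of the 6 receptors with values rose and 2 fell, when 19.2% of all 11408 genes rose and 16.9% fell. Of the immunoglobulin superfamily genes listed beside IGSF10, IGSF6, which is expressed in monocytes and dendritic cells, rose by 1.28 (adjusted p = 0.000543). The tetraspanin partner IGSF8 rose by 0.72 (adjusted p = 0.00351), with adjusted p = 0.327 after the GC correction. LRIG2, of the same list and below the filter, was lower in every guide library, at 0.307 ± 0.0365 FPKM with the guides (SD, n = 4) and 0.441 ± 0.111 FPKM with sgRosa (SD, n = 3), with adjusted p = 0.0777 when no filter was set.

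**Figure D4:**
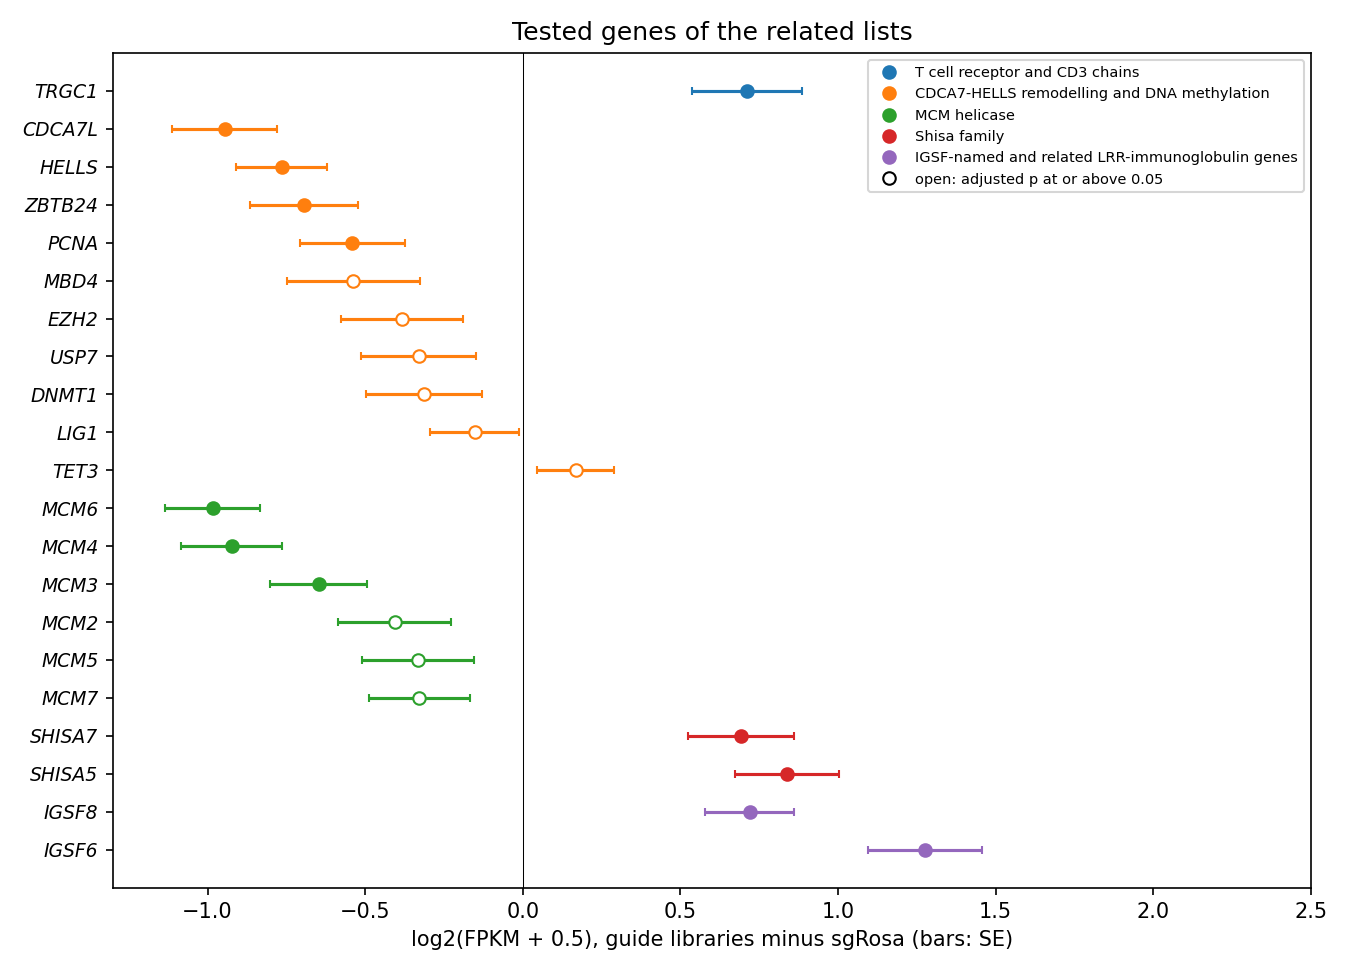
Log2(FPKM + 0.5) difference of guide libraries minus sgRosa (x axis, bars are standard errors) for the tested genes of 5 lists, without the 5 picked genes; filled points passed an adjusted p of 0.05 and open points did not. Filled points of the CDCA7-HELLS and MCM lists lie between -0.98 and -0.54, and those of the Shisa, IGSF and receptor chain lists between 0.69 and 1.28. TRGC1, SHISA7 and IGSF8 met the filter through the guide libraries alone, and HELLS through the sgRosa libraries alone. Of all tested genes 22.5% were called higher and 19.7% lower.

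Genes near the 5 in the genome were looked at within 200 kb. Of 10 neighbours with values, 6 were tested, and 2 were called, both higher, when 22.5% of all tested genes were called higher and 19.7% lower. Both met the filter through the guide libraries alone. JAML, a leukocyte adhesion molecule 114 kb from CD3D, rose by 1.75 (adjusted p = 2.51e-05), and ABHD4, a lipase 132 kb from TRDC, by 0.54 (adjusted p = 0.00687). RNF6 next to SHISA2 (-0.33), DAD1 next to TRDC (-0.15), and UBE4A (-0.19) and ATP5MG (0.21) next to CD3D did not pass. MAP3K20, a stress kinase next to CDCA7, was below the filter at 0.309 ± 0.0541 FPKM with the guides (SD, n = 4) and 0.675 ± 0.156 FPKM with sgRosa (SD, n = 3), and MPZL3 next to CD3D at 0.253 ± 0.0592 FPKM with the guides (SD, n = 4) and 0.156 ± 0.00606 FPKM with sgRosa (SD, n = 3). KMT2A, the gene fused in MOLM13, lies 93.7 kb from CD3D and was at 0.501 ± 0.0948 FPKM with the guides (SD, n = 4) and 0.619 ± 0.294 FPKM with sgRosa (SD, n = 3), below the level tested.

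Genes with a similar pattern over the 7 libraries were ranked by the mean absolute difference in log2(CPM + 0.5) after centring each gene on its sgRosa mean, which favors genes lowered by the same amount. Nearest to SHISA2 was TRDC at 0.552, the widest gap to a nearest gene among the 5, then IGSF10 at 0.629, LINC01021 at 0.650, MEST at 0.693 and ALDH5A1 at 0.697. Nearest to IGSF10 was the long noncoding RNA LINC01021 at 0.204, followed by the GABA-degrading enzyme ALDH5A1 at 0.334, the lectin-like CLEC2D at 0.358, TRDC at 0.373 and the co-chaperone BAG2 at 0.382. For CDCA7 the closest were the integrin adaptor FERMT1 at 0.0884, CLECL1 at 0.0976, the deubiquitinase USP51 at 0.110, the mitotic ATPase ERCC6L at 0.110 and BAG2 at 0.126. For TRDC they were CHML at 0.163, BAG2 at 0.167, the imprinted gene MEST at 0.180, HSPA4L at 0.188 and LINC01021 at 0.195. CD3D was most like DEPDC7 at 0.0980, GNPNAT1, an enzyme of hexosamine synthesis, at 0.105, C2orf44 at 0.109, GOLPH3L at 0.111 and NGLY1 at 0.116. Among the 5 genes themselves CDCA7 and TRDC (0.248) and CDCA7 and CD3D (0.256) were most alike, and SHISA2 and CD3D (1.05) least. These values describe the libraries. The ranking uses the differences that the 5 genes were picked for, so it is no separate evidence. Several of the named genes had low means with the guides, such as LINC01021 at 0.436 FPKM, against 1.70 with sgRosa, and ALDH5A1 at 0.384, against 1.31. Others did not, such as CHML at 6.57 FPKM with the guides and 21.1 with sgRosa. Which of them met the filter through sgRosa libraries alone was not tested. On log2(FPKM + 0.5), 1 or 2 of the 5 nearest genes of each were the same.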

How the data were processed

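Poly(A) RNA of 7 MOLM13 libraries was sequenced single-end with a directional kit, per the labels' protocols. STAR 2.5.3, HTSeq, edgeR and limma are named with GRCh38.p7 and hg38 in the submitters' processing notes, without roles. For the 5 genes the authors' deposited FPKM are per kilobase of gene span, introns included. The authors' deposited group mean CPM, a signal on an adjusted library size, divided by FPKM gave whole lengths for all 11408 genes, equal to the GENCODE 29 gene span for 8064 of them, the 5 genes included, and these gave whole reads (within 0.01) for all values. The authors also deposited, for either guide, log2 fold changes over control. Reads in listed genes came to 28088053 to 38807816 in guide libraries and 16907955 to 25164359 in sgRosa libraries, and 1 read was worth 0.0261 to 0.0540 CPM. Reads carry no molecular identifiers. Deposited guide names (5 and 3) could not be paired with the labels' numbering.

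The values log2(FPKM + 0.5) of 6783 genes with 2 or more libraries at FPKM of 1 or more were fitted with limma 3.58.1 (R 4.3.3; a mean per group, mean-variance trend; degrees of freedom 4 residual, 6.21 prior; two-sided; Benjamini-Hochberg over all tested genes, threshold 0.05). Whether replicates were separate cultures is not in the labels, so p-values measure only how these samples vary. The 5 genes and the 13 lists were chosen with earlier results of these data known. Named beside them are up to 4 called genes in each direction of a list, the T cell receptor chains, the 5 most similar genes and neighbours within 200 kb; genes not called, and some others, were named from the lists after their values were seen. Lists were matched by identifier, and erythroid and megakaryocyte markers gave 1 tested gene, EPOR (0.68, adjusted p = 0.00462), which overlaps a neighbour. Annotation is GENCODE 29. List counts with no filter were added after seeing the data. Alternatives were other pseudocounts, filters and scalings, GC and length correction, recovered reads as CPM or with voom, no trend, replicate blocks and leaving out each library. Python 3.11.15 and matplotlib 3.10.9 were used.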

Additional observations from a re-analysis of the deposited data

How the results depend on the processing

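SHISA2, IGSF10, CDCA7, TRDC and CD3D stayed lower in the guide libraries in every alternative in which they were tested, and SHISA2 stayed the lowest of all tested genes. They were picked for lying lower in every guide library than in every sgRosa library. Leaving out a library or changing the constant, filter or trend could therefore not reverse the direction, so its stability is no separate evidence. A mean FPKM of at least 5 kept CDCA7 alone. The SHISA2 log2 difference was -2.73 and -1.84 with 0.1 and 1 added, -2.45 with quantile normalization, -2.77 with CPM and -2.88 with voom. For TRDC these were -1.96, -1.03, -1.73, -1.81 and -2.19, and -1.15 after the GC correction. IGSF10 was -2.11 with voom, CDCA7 -1.10 after the GC correction and -1.12 with the replicate block added to it, and CD3D -1.23 with both. Leaving out 1 library gave -2.37 to -2.14 for SHISA2, -1.78 to -1.17 for IGSF10, -1.53 to -1.27 for CDCA7, -1.52 to -1.31 for TRDC and -1.04 to -0.84 for CD3D. The guide 5 minus guide 3 difference was 0.35 to 0.66, 0.16 to 0.37, 0.28 to 0.41 and 0.16 to 0.45 for the first 4 and -0.01 to 0.28 for CD3D, negative (-0.0116) without guide 3 replicate 2, and in the other settings 0.36 to 0.96 for SHISA2, 0.08 to 0.50 for IGSF10, 0.25 to 0.57 for CDCA7, 0.09 to 0.73 for TRDC and 0.11 to 0.39 for CD3D. Adjusted p was 0.138 or more in the 19 settings run for each gene (20 for CDCA7), which do not include the crossed pairing; the lowest unadjusted p for TRDC was 0.00896, after the GC correction.

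Over all genes, 557 were higher and 342 lower with a mean FPKM of at least 5, 929 higher with GC correction and block, and 2377 lower with the same sum of FPKM, which moved the median of all genes to -0.17. Leaving out 1 library gave 994 to 1839 higher and 564 to 1707 lower; the lower counts were 821 without guide 3 replicate 1, 564 without guide 3 replicate 2 and 567 without guide 5 replicate 1, and the higher counts 1010 without guide 3 replicate 2 and 994 without guide 5 replicate 1. Between the guides 97 genes were called without a filter, 9 with a mean of at least 5, 92 with quantile normalization, 89 after the GC correction, 26 with CPM and 22 to 219 with 1 library left out (219 without sgRosa replicate 2, 22 to 25 without any guide library). Deviations of same-numbered libraries correlated from -0.573 to 0.442, so the numbers were not taken as pairs. The replicate block gave 196 calls between the guides and changed no direction of the 5 genes. Only sgRosa has a replicate 3, so the block gave the same guide minus sgRosa differences as leaving out sgRosa replicate 3. For the direction of the 5 genes it is no separate check. A crossed pairing of the 4 guide libraries alone, chosen after seeing the data, gave 3279 calls. The cause of these shifts was not tested. TRDC rests on 29 to 53 reads in guide libraries.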

Other observations

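sgRosa replicate 2 was at or above the IGSF10 ratio of 2.60, relative to the mean of the other sgRosa libraries, for 56 of 6783 tested genes (0.826%). The ratio was 1.35 for CDCA7, 1.34 for CD3D, 1.14 for TRDC and 1.11 for SHISA2, against a median of 1.19.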
